A study of Mus musculus with 6 samples.

Results

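The genes described here are the chaperones and protein folding factors of mOPCs, mouse primary oligodendrocyte precursor cells, the glia from which oligodendrocytes (OLs), the cells that myelinate axons, develop. Members were chosen by symbol alone: every gene whose symbol starts with Hsp followed by a digit or by a, b, d, e or h, with Dnaja, Dnajb or Dnajc and a digit, with Cct2 to Cct8 or with Fkbp and a digit, together with Pdia3 to Pdia6. The files held 101 such genes of 23038. The study knocked down Qk, which encodes the Quaking RNA-binding proteins Qki5, Qki6 and Qki7, and measured polyadenylated RNA 72 h after transfection in 3 libraries of the control siRNA group (siNC) and 3 of the group that received Qk siRNAs (siQk). The cells were immunopanned from mouse embryos, and the labels call the 3 libraries of each group biological replicates, so that P values measure the spread between these libraries. Several Qk siRNAs were used, and neither the mouse strain nor which siRNA went into which library is given in the sources used here. Immunopanning enriches cells on dishes coated with antibodies to surface proteins, so that other cells of the tissue can be carried along.

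Chaperones bind unfolded or partly folded proteins and keep them from aggregating. HSP70 proteins work in cycles of ATP hydrolysis that J-domain proteins (Dnaj symbols) start and nucleotide exchange factors, such as the HSP110 family, reset. HSP90 takes over late folding steps of kinases and steroid receptors, the ring-shaped CCT complex folds actin and tubulin, and the mitochondrial Hspd1 and Hspe1 form a separate chaperonin in the matrix. In the endoplasmic reticulum (ER), Hspa5, Hsp90b1 and the protein disulfide isomerases (Pdia) fold secreted and membrane proteins, a load that is heavy in cells that build myelin. Fkbp proteins are FK506-binding prolyl isomerases, and several of them attach to HSP90.

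Library totals ranged from 58166490 to 141045937 tags, a tag being the authors' estimated count. The normalization factors (TMM, trimmed mean of M values) ranged from 0.899 to 0.987 in siNC and from 1.04 to 1.07 in siQk. Levels are therefore given as scaled RPKM, that is RPKM computed from the tags, the exon length and a library total multiplied by its factor, and fold changes are siQk over siNC on the log2 scale from edgeR's quasi-likelihood test. A transcript was called changed at P under 0.01 and a Benjamini-Hochberg FDR under 0.1 over the 12505 genes tested, which had an average logCPM (log2 of the count scaled to library size) over 0. With the lowest total, siNC replicate 1 carried 3.11% of its tags on Rn45s, a ribosomal RNA precursor, where the other libraries had 0.169% to 0.389%. Qk was at 233, 214 and 165 scaled RPKM in siNC and 48.8, 71.9 and 34.7 in siQk, without overlap (log2 fold change -1.98, standard error 0.28, FDR 0.00311). Of 5 OPC markers, 3 were called higher and none lower, with a summed level of 655 to 712 in siNC and 804 to 936 in siQk. Of 5 markers of mature OLs, 4 were called lower, and their sum ran from 1721 to 3906 in siNC and from 527 to 1019.7 in siQk. Of 5 astrocyte markers, 3 were called lower, with sums of 78.0 to 131 in siNC and 19.1 to 21.7 in siQk. Gfap was at 57.1, 56.7 and 103 in siNC and 8.71, 8.52 and 10.8 in siQk. Slc1a2 was at 20.7, 13.5 and 21.2 in siNC and 9.37, 8.51 and 8.71 in siQk, whereas Gja1 was at or below 0.0132 in every library. The sums of 5 neuron markers ran from 2.40 to 3.92 and from 6.10 to 10.7, with 1 called higher, and those of 5 microglia markers from 0.784 to 3.43 and from 0.282 to 0.386, with 1 called lower. Slc17a6, C1qa and Cldn5 were at 0 in every library, and no fibroblast or vascular marker exceeded 0.154. The part of these shifts in the results below was not tested, and in bulk RNA fewer cells of a type and less RNA per cell cannot be told apart.

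Most chaperone and folding genes differed little between siNC and siQk. Of the 101 members, 82 were tested, and 20 of these were called changed, 12 lower and 8 higher in siQk. That is 24.4% of the tested members, read beside 31% of all tested genes (17.2% lower and 13.8% higher). The median log2 fold change of the tested members was 0.034, against 0.01 for all tested genes, and the median absolute log2 fold change was 0.19 against 0.25. A change of 0.5 or more on the log2 scale, in either direction, was seen in 7 members (8.54%), compared with 24.1% of all tested genes. The median standard error was 0.096 for members and 0.11 for all tested genes. Members were also higher in level, with a median logCPM of 5.92 against 5.19 for all tested genes. The part of level in these contrasts was not tested. Scaled RPKM ranges of siNC and siQk did not overlap for 34 of the 82 members, 19 with siQk below and 15 above, read beside 54.4% of all tested genes.

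The count of called members was lower in each fit that left out a single library, and these fits had fewer samples. It was 12 without siNC replicate 1, 9 without siQk replicate 1, 10 without siQk replicate 2 and 12 without siQk replicate 3. Without siNC replicate 2 or siNC replicate 3 it was higher than in those fits. The cause of the lower counts was not tested. With library size only in place of TMM the calls turned to 7 lower and 13 higher, and that scaling moved the median of the 12505 genes to 0.16. Calls of Dnajb2, Hspa9, Dnajc1, Dnaja2, Dnajc11, Fkbp4, Hspd1, Cct3, Fkbp3 and Hspa1l were lost with the replicate number as a block. Below, that loss is repeated only for Dnajb2. Dnajc24, Dnajb14, Dnajb9, Fkbp15, Dnajc18 and Hspa4, all lower, and Dnajb6 and Dnajb5, both higher, were called under each of the 12 alternative settings.

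**Figure D1:**
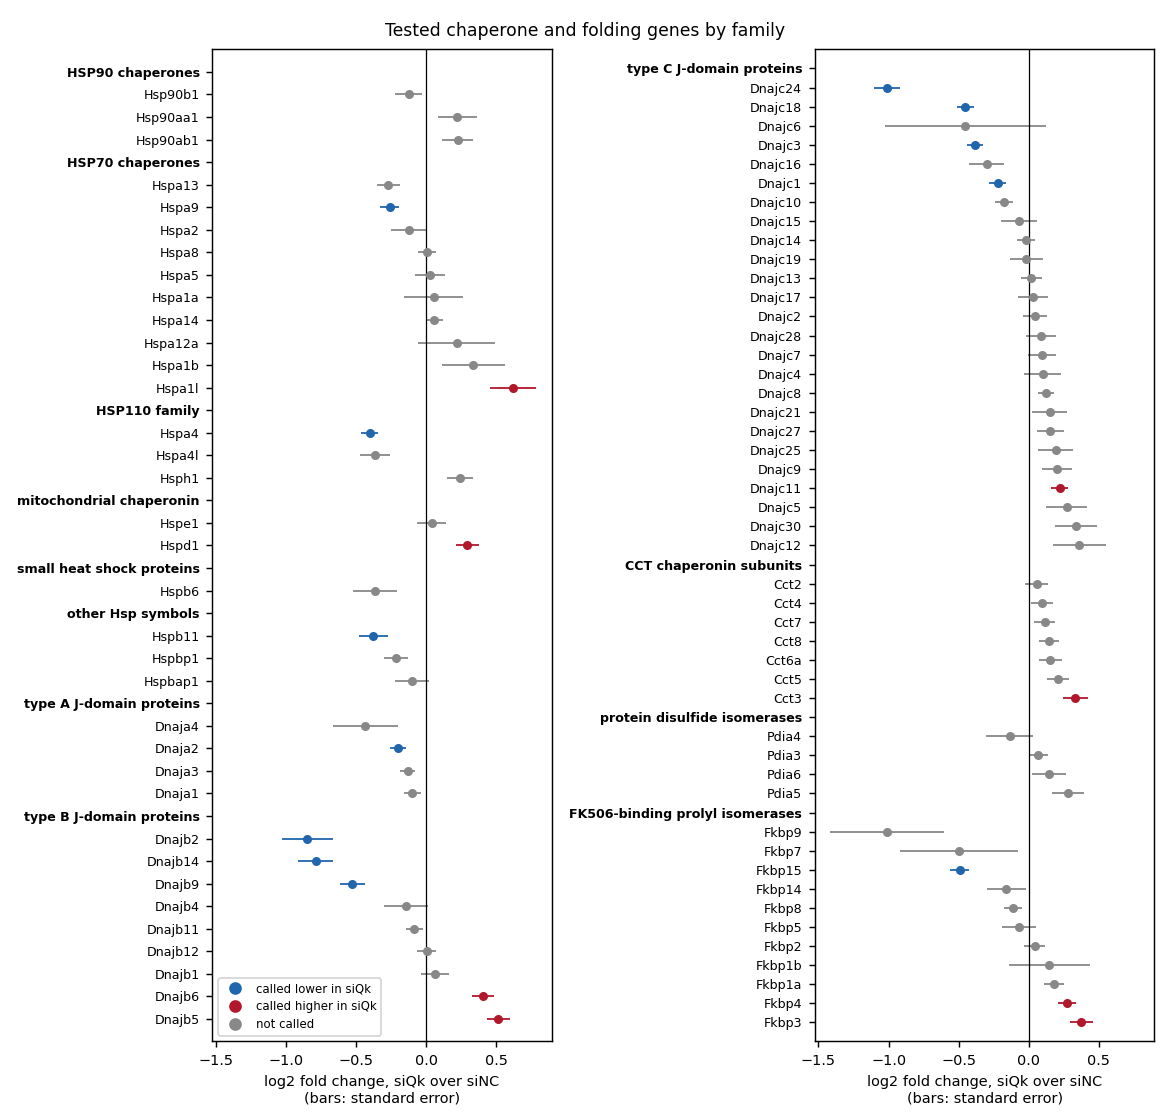
Log2 fold change of each of the 82 tested members, siQk over siNC, with its standard error, by family. Blue marks members called lower, red those called higher and grey those not called. Most points lie close to 0, and the widest bars belong to Dnajc6, Fkbp7 and Fkbp9.

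In level, the folding genes of mOPCs were led by Hsp90ab1, the constitutive cytosolic HSP90, at 440.1 ± 43.7 scaled RPKM (SD, n = 3) in siNC. Next came Calr (mean 396 in siNC) and Ppib (384) among the listed ER partners outside the symbol rule, and then Pdia3, Hsp90b1, Cct5 and Hspa5 within it. All members together summed to 4872, 4795 and 5304 scaled RPKM in the siNC libraries and to 5299.5, 5319 and 4968 in the siQk libraries, ranges that overlap. The 19 untested members did not exceed 1.03 scaled RPKM in any library; they were Cct6b, Cct8l1, Dnajb13, Dnajb3, Dnajb7, Dnajb8, Dnajc22, Dnajc5b, Dnajc5g, Fkbp10, Fkbp11, Fkbp6, Hspa12b, Hspb1, Hspb2, Hspb3, Hspb7, Hspb8 and Hspb9.

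**Figure D2:**
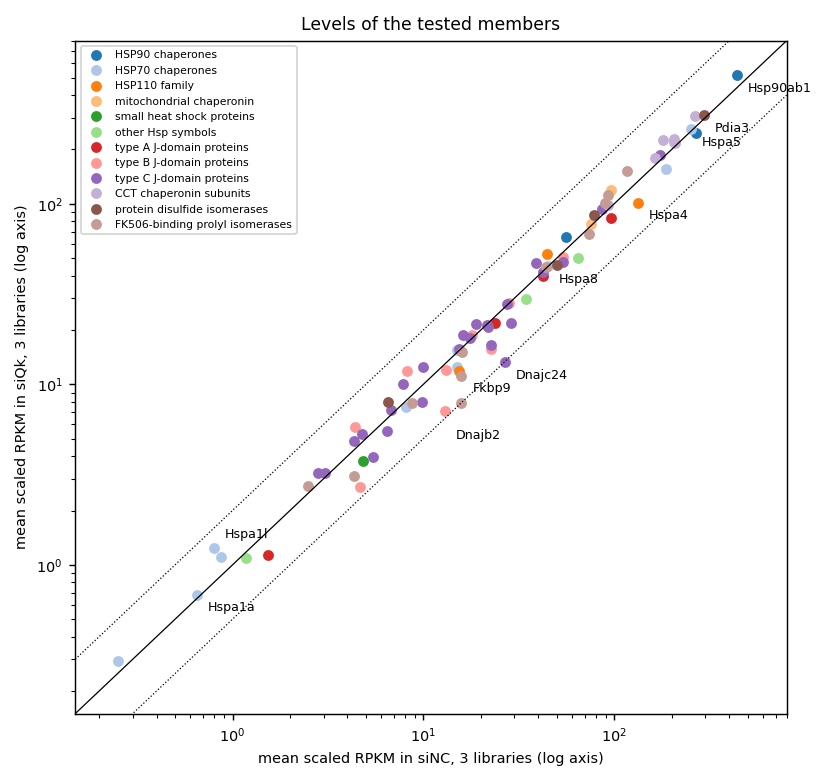
Mean scaled RPKM of each tested member in siNC (horizontal) and siQk (vertical), 3 libraries each, on log axes; the solid line marks equal levels and the dotted lines a factor of 2. Dnajc24 and Fkbp9 sit at the lower dotted line, while Hsp90ab1 is the highest of the members.

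J-domain proteins held 11 of the 20 called members, 8 lower and 3 higher, out of 38 tested, to be read beside the 31% called over all tested genes. The called gene with the lowest log2 fold change was Dnajc24, which serves in the synthesis of diphthamide, a modified residue of elongation factor 2. It was at 27.0, 26.3 and 26.9 scaled RPKM in siNC and 13.6, 14.4 and 11.8 in siQk. The libraries were close together within each group, and siQk lay far below siNC (log2 fold change -1.01, standard error 0.093, FDR 0.000913). Dnajb2, a J-domain protein with ubiquitin-interacting motifs that is abundant in neurons, was at 13.7, 14.6 and 10.3 scaled RPKM in siNC and 6.82, 5.94 and 8.73 in siQk. The lowest siNC library, replicate 3, stood above the highest siQk library, also replicate 3, so that the groups were apart (log2 fold change -0.85, standard error 0.18, FDR 0.0129). Its call was lost without siQk replicate 1 (-0.81) and with the replicate number as a block (-0.85).

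Several of the J-domain genes that fell encode proteins of the ER. Dnajb9 (ERdj4), a partner of Hspa5 in the ER lumen, was at 22.0, 24.1 and 21.4 scaled RPKM in siNC and 15.1, 17.2 and 14.6 in siQk. Its libraries separated by group (log2 fold change -0.53, standard error 0.09, FDR 0.00594). Dnajb14, anchored in the ER membrane, was at 3.99, 5.48 and 4.49 scaled RPKM in siNC and 2.76, 2.58 and 2.75 in siQk, with siQk libraries that nearly coincided (log2 fold change -0.79, standard error 0.13, FDR 0.00493). Dnajc3 (p58IPK), an Hspa5 partner also known as an inhibitor of the eIF2alpha kinases, was at 28.4, 29.7 and 27.8 scaled RPKM in siNC and 21.7, 22.8 and 21.5 in siQk, again without overlap (log2 fold change -0.38, standard error 0.058, FDR 0.00404), and was not called with library size only (-0.23). Dnajc1 (ERdj1), which binds ribosomes at the ER membrane, was at 6.38, 6.33 and 6.57 scaled RPKM in siNC and 5.22, 5.78 and 5.52 in siQk. The difference was small (log2 fold change -0.22, FDR 0.0322) and its call was lost with each single library left out, the log2 fold changes then being -0.23, -0.24 and -0.20 without siNC replicates 1, 2 and 3 and -0.18, -0.26 and -0.22 without siQk replicates 1, 2 and 3. It was also lost with library size only (-0.073) and without a filter on low counts (-0.20). The Dnajc1 gene shares 6757 bases of its span with Mllt10, and the library kit does not mark strand. Dnajb11 and Dnajc10, other J-domain proteins of the ER lumen, had log2 fold changes of -0.084 and -0.18 and were not called.

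Dnajc18 was at 22.6, 23.5 and 21.6 scaled RPKM in siNC and 16.8, 16.9 and 15.6 in siQk, with all siQk libraries below all siNC libraries (log2 fold change -0.45, standard error 0.062, FDR 0.00291). Dnaja2, a main cytosolic partner of HSP70, was at 92.9, 98.5 and 96.3 scaled RPKM in siNC and 84.2, 83.2 and 83.1 in siQk. The siQk libraries were nearly equal and lay below siNC by a small margin (log2 fold change -0.20, FDR 0.0311), and the call was lost without siNC replicate 2 (-0.18), siNC replicate 3 (-0.20), siQk replicate 1 (-0.21), siQk replicate 2 (-0.20) or siQk replicate 3 (-0.20), with library size only (-0.051) and without a filter on low counts (-0.18). The other type A genes, Dnaja1, Dnaja3 and Dnaja4, had log2 fold changes of -0.099, -0.13 and -0.43, none of them called.

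On the other side, Dnajb5 and Dnajb6 rose. Dnajb5, a cytosolic type B protein, was at 7.52, 8.48 and 8.72 scaled RPKM in siNC and 11.3, 12.1 and 11.9 in siQk. Every siQk library stood above every siNC library (log2 fold change 0.51, FDR 0.0047). Dnajb6, known to keep polyglutamine and other aggregation-prone proteins soluble, was at 4.32, 4.67 and 4.19 scaled RPKM in siNC and 5.95, 5.87 and 5.66 in siQk, with narrow and separate groups (log2 fold change 0.41, FDR 0.00892). Dnajc11, a protein associated with the mitochondrial outer membrane, was at 16.5, 15.1 and 16.7 scaled RPKM in siNC and 18.8, 19.2 and 18.4 in siQk (log2 fold change 0.22, standard error 0.061, FDR 0.0291), and its call was lost without siNC replicate 1 (0.24), siNC replicate 2 (0.18), siQk replicate 1 (0.22), siQk replicate 2 (0.21) or siQk replicate 3 (0.24), and with RLE size factors (0.21). Dnajb1, the heat-inducible cytosolic partner of HSP70, was at 19.5, 15.5 and 19.1 scaled RPKM in siNC and 18.0, 18.9 and 19.5 in siQk, with overlapping groups (log2 fold change 0.06, FDR 0.657).

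Dnajc7 had the highest level of the J-domain genes, at 173 ± 20.7 scaled RPKM (SD, n = 3) in siNC and 185 ± 7.18 in siQk, and was not called (log2 fold change 0.096). Of the vesicle-linked members, Dnajc5 (cysteine string protein alpha) was at 43.1, 44.2 and 29.8 scaled RPKM in siNC and 46.7, 47.6 and 46.8 in siQk, siNC replicate 3 lying well below the others, and Dnajc6 (auxilin, which uncoats clathrin vesicles) was at 5.24, 8.94 and 2.13 scaled RPKM in siNC and 3.59, 1.99 and 6.32 in siQk, with a wide spread in both groups. Neither was called, and nor was Dnajc13 (log2 fold change 0.018). Over the J-domain genes, 1 of 4 tested type A, 5 of 9 type B and 5 of 25 type C members were called (25%, 55.6% and 20%, beside 31% of all tested genes), with median log2 fold changes of -0.17, -0.084 and 0.045. The type C values ran from -1.01 to 0.36. The type B median turned to 0.067 with library size only.

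**Figure D3:**
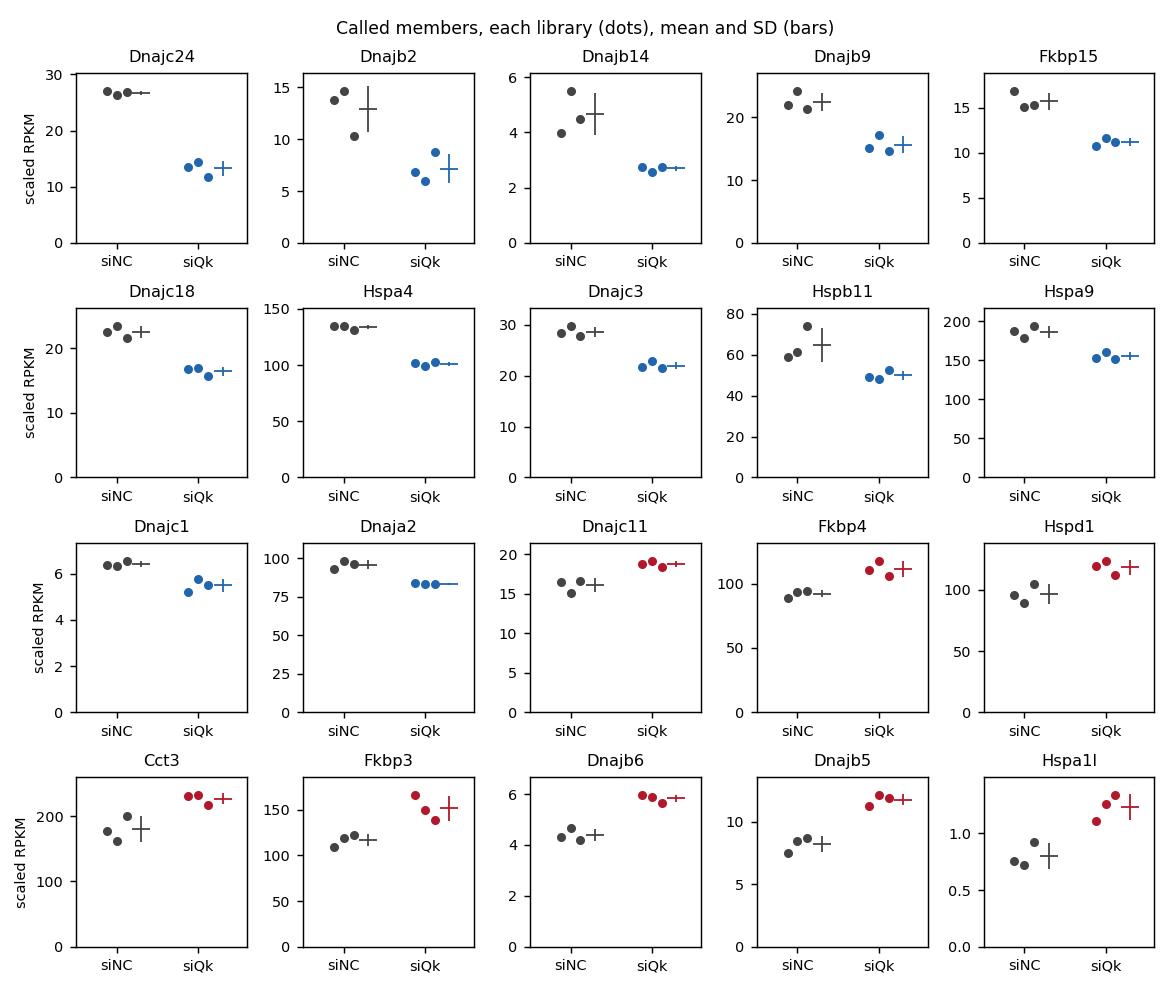
Scaled RPKM of the 20 called members in each library (dots), with the mean and SD of 3 libraries beside them and axes that start at 0; panels run from the lowest to the highest log2 fold change. In every panel the siNC and siQk dots do not overlap, as for Dnajc24 (siNC 26.3 to 27.0, siQk 11.8 to 14.4).

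Of 10 tested HSP70 genes, 1 was called lower and 1 higher (20%, beside 31% of all tested genes). Their median log2 fold change was 0.042, and it turned to -0.011 without siNC replicate 2 and to -0.013 without siQk replicate 2. Hspa5 (BiP), the HSP70 of the ER, was at 228, 241 and 290.2 scaled RPKM in siNC and 258, 272 and 245 in siQk (log2 fold change 0.029, FDR 0.846). Hspa8, the constitutive cytosolic HSP70, was at 43.6, 42.9 and 47.7 scaled RPKM in siNC and 44.2, 46.7 and 44.1 in siQk (log2 fold change 0.0074). Both groups overlapped for these genes. The Hspa8 level is uncertain where reads could match processed copies of the gene. Hspa9 (mortalin), the mitochondrial HSP70, was at 187, 178 and 194 scaled RPKM in siNC and 154, 161 and 152 in siQk. Its siQk libraries lay below its siNC libraries (log2 fold change -0.26, standard error 0.067, FDR 0.0231), and its call was lost without siNC replicate 1 (-0.26), siNC replicate 3 (-0.23), siQk replicate 1 (-0.25), siQk replicate 2 (-0.28) or siQk replicate 3 (-0.24), with library size only (-0.11) and without a filter on low counts (-0.24).

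The stress-inducible Hspa1a and Hspa1b were close to the limit of testing, at 0.642, 0.620 and 0.699 scaled RPKM in siNC and 0.665, 0.855 and 0.525 in siQk and at 0.762, 0.827 and 1.02 scaled RPKM in siNC and 1.07, 1.40 and 0.849 in siQk. Neither was called, and because the pair is nearly identical in sequence the split of reads between them is uncertain. Hspa1l, their neighbour on chromosome 17 and best known from testis, was at 0.752, 0.722 and 0.928 scaled RPKM in siNC and 1.11, 1.26 and 1.34 in siQk, from 95 to 426 tags per library. Its groups did not overlap (log2 fold change 0.62, standard error 0.17, FDR 0.0274), and the call was lost without siNC replicate 1 (0.58), siNC replicate 2 (0.54), siQk replicate 1 (0.69), siQk replicate 2 (0.61) or siQk replicate 3 (0.56). Of the other HSP70 genes, Hspa13, which resides in the ER, was at 16.1, 13.3 and 15.6 scaled RPKM in siNC and 12.7, 12.4 and 12.3 in siQk, and its P of 0.0132 missed the cutoff at an FDR of 0.0393.

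Of the 3 HSP110 genes, 1 was called (33.3%, beside 31% of all tested genes), and it was lower. Hspa4, a nucleotide exchange factor of cytosolic HSP70 and the most abundant of the family, was at 134, 135 and 131 scaled RPKM in siNC and 102, 98.7 and 103 in siQk. The libraries of each group lay close together, and siQk stood below siNC (log2 fold change -0.40, standard error 0.06, FDR 0.004). Hspa4l was at 14.4, 18.0 and 13.5 scaled RPKM in siNC and 12.1, 11.98 and 11.5 in siQk, also without overlap, but its P of 0.0129 missed the cutoff (log2 fold change -0.37, FDR 0.0385). It was called with DESeq2 (-0.37), at FDR under 0.05 alone, and without siNC replicate 2 (-0.24) or siNC replicate 3 (-0.45). Hsph1, the heat-inducible HSP110, was at 41.1, 42.5 and 49.5 scaled RPKM in siNC and 49.9, 55.9 and 51.6 in siQk, with the siQk libraries above (log2 fold change 0.24, FDR 0.0769), and was called under 1 of the 12 alternatives, without siNC replicate 3 (0.33). The summed level of the family was 189.9, 195 and 194 in siNC and 164, 167 and 166 in siQk.

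No HSP90 gene was called. Hsp90ab1 was at 426, 406 and 489 scaled RPKM in siNC and 526, 559 and 460.1 in siQk, with siNC replicate 3 inside the siQk range (log2 fold change 0.23, standard error 0.11, FDR 0.145). Hsp90aa1, the heat-inducible cytosolic form, was at 58.7, 44.0 and 64.8 scaled RPKM in siNC and 65.4, 64.2 and 65.8 in siQk. The siQk libraries were almost equal, whereas siNC replicate 2 was low (log2 fold change 0.22, FDR 0.233). Hsp90b1 (GRP94), the ER form, was at 247, 258 and 299.9 scaled RPKM in siNC and 252, 259 and 227 in siQk (log2 fold change -0.13, FDR 0.348).

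Co-chaperones that serve HSP70 and HSP90 were called in both directions. Fkbp4 (FKBP52), which acts on steroid receptors bound to HSP90, was at 88.8, 93.5 and 94.3 scaled RPKM in siNC and 110.4, 118 and 106 in siQk. Its groups did not overlap (log2 fold change 0.27, standard error 0.066, FDR 0.0197), and its call was lost without siNC replicate 1 (0.25), siQk replicate 1 (0.28) or siQk replicate 2 (0.23). Fkbp5, its paralog, was at 17.0, 17.5 and 13.3 scaled RPKM in siNC and 16.7, 14.1 and 14.7 in siQk, with overlap (log2 fold change -0.068). Outside the symbol rule, a list of 23 HSP70 and HSP90 co-chaperones held 9 called genes (39.1%, beside 31% of all tested genes, 17.2% lower and 13.8% higher), 6 higher and 3 lower, with a median log2 fold change of 0.16. The higher ones were Bag4 (0.34), Stip1 (0.25), which links HSP70 to HSP90, the kinase adaptor Cdc37 (0.27), the ATPase activator Ahsa1 (0.29), the myosin chaperone Unc45a (0.37) and the cyclophilin Ppid (0.36). The lower ones were Bag3 (-1.18), St13 (-0.52) and Cdc37l1 (-0.26). Bag3, an HSP70 exchange factor that works with small heat shock proteins in selective autophagy, was at 9.65, 11.3 and 10.6 scaled RPKM in siNC and 4.81, 4.99 and 4.20 in siQk, so that each siQk library held less than each siNC library (log2 fold change -1.18, standard error 0.10, FDR 0.000886).

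Among 13 members known to be induced by heat shock factor, 12 were tested and 2 were called, both higher (Fkbp4 and Hspd1). That is 16.7% of the tested ones, read beside 31% of all tested genes, of which 13.8% were called higher. Their median log2 fold change was 0.058, with a range from -0.37 (Hspa4l) to 0.34 (Hspa1b). Hsf1, the factor that drives this response, was at 12.5, 12.1 and 12.6 scaled RPKM in siNC and 16.1, 16.0 and 16.6 in siQk, without overlap (log2 fold change 0.39, standard error 0.061, FDR 0.0047), and Hsf2 was at 30.2, 29.7 and 31.2 scaled RPKM in siNC and 29.2, 32.7 and 30.8 in siQk (log2 fold change 0.024, not called). The heat shock element, the DNA site of these factors, was searched as GAANNTTCNNGAA or TTCNNGAANNTTC, which are the same site on the opposite strands, in the RefSeq promoter windows (GRCm38.p6, 250 bases before to 50 after each start). Of the 101 members, 85 had a window, and 4 of these (4.71%) held the site, in at least 1 window, compared with 0.636% of the 17615 genes of the files with a window. These were Hspd1 and Hspe1, which share it, Dnajb6 and Hsph1. The windows of Dnajb6 and Hsph1 are shown around the site because the genes differ in their call: Dnajb6 was called higher and Hsph1 was not. Both had log2 fold changes above 0 (0.41 and 0.24), and the difference between them was not tested. Depending on the annotated start, the Dnajb6 match begins at position -46 or -127. The Hsph1 match begins after the start, at position 15 or 36. The site is in capitals.
Dnajb6, chr5:29735827-29735889, plus strand: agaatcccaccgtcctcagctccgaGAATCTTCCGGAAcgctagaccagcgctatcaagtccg
Hsph1, chr5:149636266-149636325, minus strand: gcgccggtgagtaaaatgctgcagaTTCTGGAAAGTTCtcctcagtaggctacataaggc

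Hspd1 and Hspe1, which encode the ring and the lid of the mitochondrial chaperonin, lie head to head on chromosome 1. Hspd1 runs on the minus strand from 55077833 to 55088243 and Hspe1 on the plus strand from 55088148 to 55091317 (GRCm38.p6), so that the annotated spans share 96 bases. The window of Hspe1 is printed on the plus strand because both genes start within it or next to it, and its capitals mark an overlapping pair of heat shock element matches at positions -89 and -84 from the Hspe1 start.
Hspe1 and Hspd1, chr1:55087898-55088197, plus strand: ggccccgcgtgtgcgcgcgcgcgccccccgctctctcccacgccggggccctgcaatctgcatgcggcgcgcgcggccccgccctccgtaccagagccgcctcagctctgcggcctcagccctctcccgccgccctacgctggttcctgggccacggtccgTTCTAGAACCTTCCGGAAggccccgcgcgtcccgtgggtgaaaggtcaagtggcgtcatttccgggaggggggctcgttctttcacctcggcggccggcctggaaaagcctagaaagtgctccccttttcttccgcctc
Hspd1 was at 95.9, 89.1 and 105 scaled RPKM in siNC and 119.5, 124 and 112 in siQk, with siQk above siNC (log2 fold change 0.29, standard error 0.081, FDR 0.0291). Hspe1 was at 74.3, 67.0 and 84.4 scaled RPKM in siNC and 77.8, 82.8 and 71.1 in siQk, with groups that overlapped (log2 fold change 0.038, standard error 0.10, FDR 0.789). The difference between the partners was not tested. The Hspd1 call was lost without siNC replicate 1 (0.29), siNC replicate 2 (0.24), siQk replicate 1 (0.29), siQk replicate 2 (0.26) or siQk replicate 3 (0.33). Of 9 mitochondrial members, all tested, Hspd1 and Dnajc11 were called higher and Hspa9 lower (33.3% called, beside 31% of all tested genes). Their median log2 fold change was 0.038. In the list of 8 mitochondrial folding partners, Hscb, a J-domain protein of iron-sulfur cluster assembly, was called lower (-0.50). No other gene of that list was called (12.5% called, beside 31% of all tested genes), Trap1, the mitochondrial HSP90, having a log2 fold change of 0.18.

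The subunits of CCT lay within the same order of magnitude in level, and each of the 7 tested had a log2 fold change above 0. These ranged from 0.057 (Cct2) to 0.33 (Cct3), with a median of 0.14, and they stayed above 0 as a median under the 12 alternatives (from 0.11 to 0.29). Cct3 was the only subunit called (14.3% of those tested, beside 31% of all tested genes). It was at 177, 162 and 201 scaled RPKM in siNC and 231, 232 and 217 in siQk, without overlap (log2 fold change 0.33, standard error 0.092, FDR 0.0294), and its call was lost without siNC replicate 1 (0.32), siNC replicate 2 (0.26), siQk replicate 1 (0.32), siQk replicate 2 (0.32) or siQk replicate 3 (0.36). Cct5, the highest in level, was at 256, 254 and 283 scaled RPKM in siNC and 309.7, 319 and 286 in siQk. Its siQk libraries stood above its siNC libraries, but its P of 0.0339 missed the cutoff (log2 fold change 0.21, FDR 0.0769), and it was called with library size only (0.35). The log2 fold changes of Cct4, Cct6a, Cct7 and Cct8 were 0.096, 0.15, 0.11 and 0.14, with overlapping groups. Tcp1, which encodes the remaining subunit and has a symbol outside the rule, was at 145, 141 and 158 scaled RPKM in siNC and 174, 161 and 154 in siQk (log2 fold change 0.14, FDR 0.197). Together with Tcp1 the subunits summed to 1444, 1380.2 and 1574 scaled RPKM in siNC and 1691, 1679 and 1549.9 in siQk, where siNC replicate 3 lay within the siQk range.

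Prefoldin hands actin and tubulin to CCT. Of 8 tested prefoldin subunits and CCT partners, Tcp1 included, Pfdn4 and Pfdn2 were called higher and Pdcl, a phosducin-like partner of CCT, lower (-0.27). That is 37.5%, read beside 31% of all tested genes. Pfdn4 was at 35.4, 32.0 and 36.4 scaled RPKM in siNC and 46.1, 47.9 and 46.6 in siQk and Pfdn2 at 71.0, 73.1 and 73.5 scaled RPKM in siNC and 86.2, 89.4 and 85.8 in siQk, both without overlap (log2 fold changes 0.44 and 0.26). Cct6b and Cct8l1, paralogs best known from testis, were not tested. Cct6b was at 0.304, 0.388 and 0.347 scaled RPKM in siNC and 0.0723, 0.160 and 0.0941 in siQk, and Cct8l1 stayed at or below 0.0405.

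Most folding genes of the ER were not called. Of 18 ER members, 16 were tested and 3 were called, all lower: Dnajb9, Dnajc3 and Dnajc1. That is 18.8% of the tested ER members, read beside 31% of all tested genes, of which 17.2% were called lower. The list of ER members used for this count does not hold Dnajb14, which was also called lower. The median log2 fold change was -0.15. None of the 4 disulfide isomerases was called. Pdia3, which works on glycoproteins held by calnexin and calreticulin, was at 284, 302 and 296 scaled RPKM in siNC and 323, 301 and 301 in siQk (log2 fold change 0.067). Pdia4 was at 44.8, 45.6 and 60.2 scaled RPKM in siNC and 53.6, 37.3 and 46.0 in siQk and Pdia6 at 68.2, 75.2 and 92.3 scaled RPKM in siNC and 85.8, 92.6 and 82.1 in siQk, both with overlap (log2 fold changes -0.14 and 0.14). Pdia5, the lowest of these in level, was at 6.65, 5.73 and 7.31 scaled RPKM in siNC and 8.52, 7.76 and 7.59 in siQk, with siQk above siNC but a P of 0.0473 (FDR 0.0983).

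The ER stress response element (CCAAT and CCACG with 9 bases between them, searched on both strands) is the site of the factors that raise these genes when unfolded protein collects in the ER. It was found in the promoter windows of 4 of 85 members (4.71%) and of 0.17% of the 17615 genes: Hspa5, Hsp90b1, Pdia6 and Dnajc3. Their windows are shown around the site, in capitals, because 1 of the genes was called lower and the others were not called.
Hspa5, chr2:34772000-34772068, plus strand: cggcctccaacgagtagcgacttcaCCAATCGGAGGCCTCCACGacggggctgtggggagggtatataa
Hsp90b1, chr10:86705508-86705681, minus strand: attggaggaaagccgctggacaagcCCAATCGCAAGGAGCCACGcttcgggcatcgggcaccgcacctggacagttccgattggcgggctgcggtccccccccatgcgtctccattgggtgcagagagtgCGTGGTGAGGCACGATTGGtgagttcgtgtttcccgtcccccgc
Pdia6, chr12:17266466-17266534, plus strand: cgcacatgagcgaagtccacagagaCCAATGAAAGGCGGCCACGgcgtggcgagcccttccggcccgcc
Dnajc3, chr14:118937802-118937870, plus strand: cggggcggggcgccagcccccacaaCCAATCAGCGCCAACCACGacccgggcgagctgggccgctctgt
The log2 fold changes beside these sites were 0.029 for Hspa5, -0.13 for Hsp90b1, which holds the site in both orientations, 0.14 for Pdia6 and -0.38 for Dnajc3, called only in Dnajc3. Dnajb9 had no match in its window. A match describes these letters and not the binding of a factor.

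Of 17 tested ER partners outside the symbol rule, 2 were called higher and 2 lower (23.5%, beside 31% of all tested genes). Canx (calnexin), the membrane lectin chaperone, was at 170.3, 175 and 159.9 scaled RPKM in siNC and 117, 126 and 115 in siQk, with siQk far below siNC (log2 fold change -0.50, standard error 0.072, FDR 0.00365), whereas its soluble counterpart Calr was at 374, 371 and 442 scaled RPKM in siNC and 424, 423 and 420.2 in siQk (log2 fold change 0.093, not called). Sil1 and Hyou1 both exchange the nucleotide of Hspa5. Sil1 was lower, at 6.71, 6.64 and 7.27 scaled RPKM in siNC and 4.59, 5.11 and 4.67 in siQk (log2 fold change -0.52, FDR 0.00683), and not called with library size only (-0.37), and Hyou1 was higher, at 25.4, 26.6 and 28.7 scaled RPKM in siNC and 34.2, 37.5 and 34.7 in siQk (log2 fold change 0.40, FDR 0.00718). Sdf2l1, a subunit that keeps Hspa5 with its partners, was at 28.6, 23.9 and 26.2 scaled RPKM in siNC and 35.3, 37.5 and 35.7 in siQk (log2 fold change 0.46, FDR 0.00719). Over all 59 tested partner genes, 18 were called, 11 higher and 7 lower (30.5%, near the share of all tested genes), and the count was 10 without siQk replicate 1.

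Among the FK506-binding prolyl isomerases, 11 of 14 were tested, 1 was called lower and 2 higher (27.3% of those tested, beside 31% of all tested genes). Fkbp15, which associates with actin and endosomes, was at 16.8, 15.1 and 15.3 scaled RPKM in siNC and 10.7, 11.7 and 11.1 in siQk, with siQk below siNC (log2 fold change -0.49, standard error 0.068, FDR 0.00301). Fkbp3, a nuclear form, was at 109, 119 and 122 scaled RPKM in siNC and 165, 149.8 and 139 in siQk, without overlap (log2 fold change 0.37, standard error 0.083, FDR 0.0149). Its call was lost without siNC replicate 1 (0.33), siQk replicate 1 (0.31) or siQk replicate 2 (0.38), and the gene shares 955 bases of its span with Prpf39. Fkbp1a, the main cytosolic target of FK506 and rapamycin, was at 91.5, 92.4 and 84.0 scaled RPKM in siNC and 99.4, 97.4 and 107 in siQk, with siQk above but an FDR of 0.0862 at a P of 0.0396. Of the ER forms, Fkbp9 had the lowest log2 fold change of the family (-1.01, standard error 0.41) and was not called (FDR 0.0912). It was at 21.4, 6.38 and 19.7 scaled RPKM in siNC and 7.63, 8.03 and 7.92 in siQk: the siQk libraries agreed closely, and siNC replicate 2 lay below them while the other two siNC libraries lay far above. Fkbp7 was at 3.29, 3.69 and 5.98 scaled RPKM in siNC and 2.20, 5.16 and 1.92 in siQk, with wide spread in both groups, and Fkbp2 and Fkbp14 had log2 fold changes of 0.041 and -0.16. The family's median of -0.068 turned to 0.086 with library size only.

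Of the 7 members that are small heat shock proteins, 6 were too low to be tested. Hspb6 was tested, at 4.60, 4.21 and 5.69 scaled RPKM in siNC and 4.29, 3.51 and 3.47 in siQk, with groups that overlapped by a small margin (log2 fold change -0.36, FDR 0.109). Hspb1 (HSP25), a hallmark of the heat shock response, stayed at or below 0.0224 scaled RPKM in every library, and Hspb7 was at 0. Hspb8, the partner of Bag3, was at 0.106, 0.135 and 0.119 scaled RPKM in siNC and 0.0186, 0.0188 and 0.0334 in siQk, too low to be tested. Cryab (alphaB-crystallin), a small heat shock protein with another symbol, is known as a product of mature OLs. It was at 7.69, 17.2 and 3.37 scaled RPKM in siNC and 3.10, 1.86 and 3.99 in siQk, a wide spread in siNC in which replicate 2 was highest and replicate 3 overlapped siQk (log2 fold change -1.65, standard error 0.58, FDR 0.0631), and the mature OL marker Mobp was ordered as Cryab was within each group, at 5.69, 26.2 and 1.64 in siNC and 0.410, 0.137 and 0.823 in siQk. The part of OL content in the Cryab level was not tested. Of the genes whose symbols fall under the rule without being chaperones themselves, Hspb11 (Ift25), a subunit of ciliary transport, was at 58.8, 61.2 and 74.0 scaled RPKM in siNC and 49.0, 48.2 and 52.4 in siQk. Its siQk libraries were below siNC (log2 fold change -0.38, standard error 0.10, FDR 0.0288), and its call was lost without siNC replicate 2 (-0.42), siNC replicate 3 (-0.27), siQk replicate 1 (-0.36), siQk replicate 2 (-0.35) or siQk replicate 3 (-0.41), and with library size only (-0.23). Hspbp1, an exchange factor of HSP70, had a log2 fold change of -0.22 and Hspbap1 of -0.10, neither called.

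**Figure D4:**
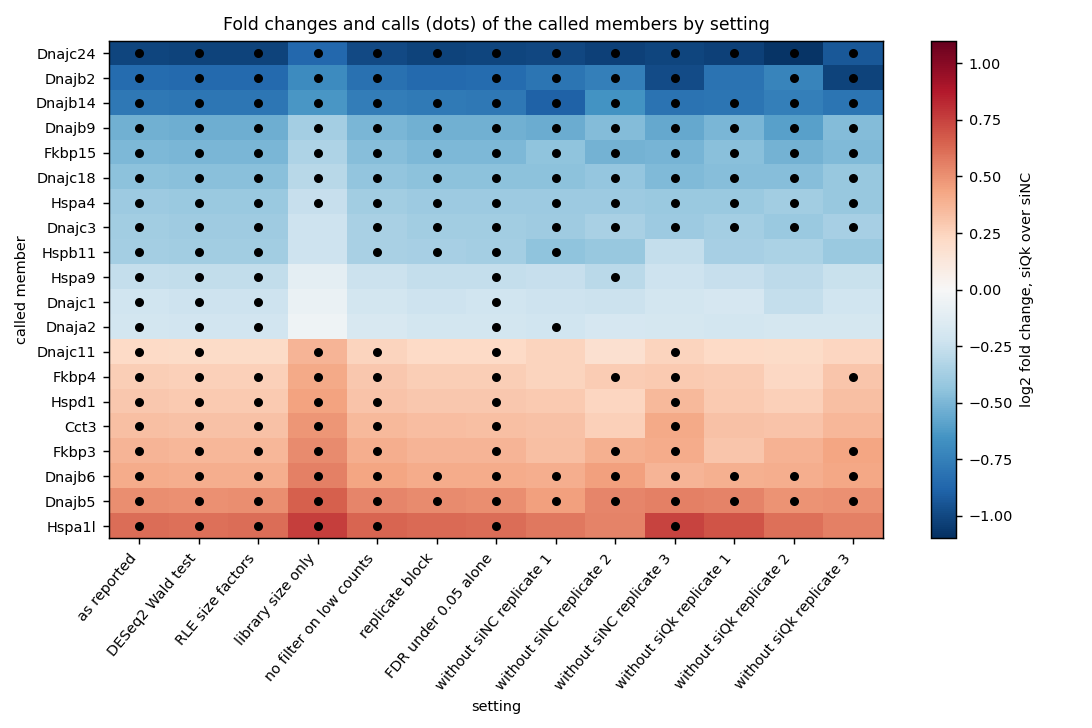
Log2 fold change, siQk over siNC (colour), and call (black dot) of the 20 called members as reported and under each of 12 alternative settings. Rows for Dnajc24, Dnajb14, Dnajb9, Fkbp15, Dnajc18, Hspa4, Dnajb6 and Dnajb5 carry a dot in every column, while those of Hspa9, Dnajc1 and Dnaja2 carry few.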

How the data were processed

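Polyadenylated RNA was sequenced from 3 siNC and 3 siQk libraries of mOPCs. The authors mapped their reads with OLego to the mm10 genome and used Quantas for gene levels, in versions not given in the sources used here. The deposited files give, per gene and library, an estimated count (tag number), which need not be whole, and an RPKM value. The deposited RPKM equals the tag number divided by exon length and by the library total. It is not corrected for differences in composition, and so the levels in the text were recomputed after TMM scaling.

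After rounding to whole tags, edgeR 4.0.16 was run in R 4.3.3 (TMM factors, glmQLFit and glmQLFTest, group as the only term) for 12505 genes that passed a floor on mean abundance (logCPM over 0). Calls required P under 0.01 and FDR under 0.1 over these genes. Standard errors were taken from the F statistic (size of the log2 fold change over the root of F). The fit was checked on simulated counts with known fold changes. Their spread between libraries was set lower than in these data, so the check does not show how the fit performs at the spread seen here. The kit does not mark strand. No libraries of a group agreed within sampling noise, the lowest chi-square per degree of freedom being 31.7.

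The alternatives were DESeq2 1.42.0, RLE size factors, library size only, no filter on low counts, FDR under 0.05 alone, the replicate number as a block, and leaving out each library. Promoter windows came from RefSeq (GRCm38.p6, the build that mm10 names).

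The members and lists were chosen with earlier results of these data known. The rule for named genes took Qk, the HSP90, HSP110, mitochondrial chaperonin, CCT and Pdia genes, the member of highest level in every other family, the 8 highest and 8 lowest called members, Tcp1, and the 2 highest and 2 lowest called partner genes. The other genes named were chosen after their values were seen.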

Additional observations from a re-analysis of the deposited data

How the results depend on the processing

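The counts of called members stayed within 1.5 times of those reported with DESeq2 (24), RLE size factors (19), no filter on low counts (20) and FDR under 0.05 alone (22). With library size only, 7 members were called lower and 13 higher, and their median log2 fold change was 0.18. Leaving out each library in turn gave 9 to 18 called members, 7 to 12 lower, 2 to 9 higher, 10 to 21 called partner genes, and a member median between -0.010 and 0.073. With the replicate number as a block, 10 members were called, 2 of them higher. Deviations from the group means of libraries with the same number correlated at -0.053, -0.15 and -0.34, so that the numbers were not taken to pair the libraries. Of 516 values for 43 single genes, 459 kept their direction and their side of the cutoff, or were not called in either case, 51 lost the call and 6 gained one. Among called partner genes, only Bag3, Sil1, Pfdn4 and Sdf2l1 belonged to these 43, and the calls of the others were not followed singly. None of the called values turned direction under the 12 alternatives, while 10 values that were not called changed sign. The cause of the lost calls was not tested. The fits that left out a library had fewer samples. Counts per gene were high enough for a median standard error of 0.096 among the tested members, and the 19 untested members were too low in level to be tested.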
